A study of Mus musculus with 12 samples.

Results

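The WAVE regulatory complex is encoded in the mouse by 10 genes that were measured here by RNA sequencing in lung and heart: Cyfip1, Cyfip2, Nckap1, Nckap1l, Wasf1, Wasf2, Wasf3, Abi1, Abi2 and Brk1. The genes were taken by name from the 55679 genes of the gene table, and all 10 were listed. They had 65 of the 147907 transcripts in the transcript table, of which 53 were above 0 in at least 1 library. The complex was selected on the values of Cyfip2 in the KO hearts, with its other genotype values known. Every difference of Cyfip2 between genotypes, between KO lung and KO heart, or in the size of the genotype effect between tissues is thus a description. Where a call of such a difference is printed, it is not a test of it. Male mice of the 129S6/SvEvTac strain, aged 9 to 13 weeks, were either wild type (WT) or homozygous for an Adam19 knockout allele (KO). In that allele a tdTomato reading frame in frame with Adam19 and an antisense hygromycin resistance cassette replace exons 6 and 7 in all cells of the mouse. Whole lung and whole heart were taken from the same 6 untreated mice, 3 of each genotype, which gave 12 libraries of stranded total RNA. Mouse identifiers of the 2 genotypes share no prefix, so any difference of litter or cage that the prefix may mark cannot be told apart from genotype.

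The WAVE complex switches on the Arp2/3 complex, which starts new branches on actin filaments and so pushes out the leading edge of cells. It holds 1 protein of each of 5 kinds: a CYFIP protein, which binds the active form of the small GTPase Rac, an NCKAP1 protein as its large partner, a WAVE protein (genes named Wasf), whose tail activates Arp2/3, an ABI adaptor, and the small subunit BRK1. Paralogs take the same place in the complex, so Cyfip1 and Cyfip2, or Abi1 and Abi2, are alternatives to each other. Cyfip2 is known as the brain-rich and lymphocyte form, Nckap1l (HEM1) as the form of blood cells, Wasf1 as a neuronal form and Wasf2 as the form found in most tissues. CYFIP proteins are also known to bind FMRP, the product of Fmr1, and the cap-binding protein eIF4E.

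Cyfip2 lies on the minus strand of chromosome 11, at chr11:46084550-46203686 (GRCm39), and its 3′ end is 46.4 kb from the 3′ end of the targeted gene Adam19, which is on the plus strand. The coding sequences of Cyfip1, on chromosome 7, and Cyfip2 are each 3759 bases long, and 77.6% of their aligned bases are identical. Their longest identical stretch is 24 bases. The start of both coding sequences shows how the paralogs differ, and the capitals mark the 14 of 60 bases at which they do.
Cyfip1: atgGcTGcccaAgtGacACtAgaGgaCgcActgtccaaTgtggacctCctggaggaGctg
Cyfip2: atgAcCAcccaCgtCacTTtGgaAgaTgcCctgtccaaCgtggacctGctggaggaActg
Of the 5 Cyfip2 transcripts listed, ENSMUST00000093166, ENSMUST00000093165 and ENSMUST00000165599 encode the same 1253 codons in the same 30 coding exons and start from different noncoding first exons. ENSMUST00000142017, whose annotated 5′ end is incomplete, has an additional coding exon of 75 bases at chr11:46149503-46149577, between exons 15 and 16 of ENSMUST00000093166. The exon adds 25 codons in frame and holds no stop codon. It is shown in capitals with 15 bases of the exons on both sides, above the same junction in the other transcripts, because its transcript was listed above 0 in the hearts alone.
with the exon: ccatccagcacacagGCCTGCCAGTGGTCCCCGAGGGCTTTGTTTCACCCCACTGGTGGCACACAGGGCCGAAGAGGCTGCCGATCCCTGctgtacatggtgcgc
without the exon: ccatccagcacacagctgtacatggtgcgc

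The libraries held 17674788 to 35862932 estimated counts. Adam19 averaged 9.22 in WT and 3.72 in KO lung, and 9.56 in WT and 6.42 in KO heart, on the log2(normalized count + 1) scale used for all gene levels here, with no overlap between genotypes in either tissue. The summed level of 6 lung epithelial markers was 18.8 to 19.1 in the lungs and 6.38 to 10.7 in the hearts, and that of 6 heart muscle markers was 20.7 to 21.0 in the hearts and 13.2 to 14.5 in the lungs. The noncoding RNA Rn7s1 took 2.10% to 34.0% of the summed gene values in the lung libraries and 2.70% to 11.8% in the heart libraries. In whole tissue, fewer cells of a type and less RNA per cell cannot be told apart.

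Cyfip2 was the member whose level set the KO hearts apart. In the WT hearts it was 9.22, 9.43 and 9.91, and in the KO hearts 12.11, 12.54 and 12.01. The lowest KO heart was 2.09 above the highest WT heart. The mean difference was 2.70 (SE 0.21), or 6.48-fold. In the WT lungs Cyfip2 was 9.06, 9.05 and 8.78, and in the KO lungs 9.31, 9.34 and 9.40. The KO lungs also lay above the WT lungs, by 0.39 (SE 0.16), or 1.31-fold. The genotype difference in lung minus that in heart was -2.31 (SE 0.26). A gene was called between groups where the adjusted p was under 0.05, the fold at least 1.5 and 1 group mean at least 6. For the genotype difference in lung minus that in heart, the adjusted p alone was needed. In a fit of all 12 libraries, the difference of this kind was called for Cyfip2 and for no other of the 17666 genes (0.00566%). The choice of the complex rests on this contrast, so the call is not a test of Cyfip2 and gives it no support. No gene was called after quantile normalization, and Cyfip2 was not called in 6 of the 12 fits that leave out 1 library (lung WT replicate 1 or 2, lung KO replicate 1, 2 or 3, or heart KO replicate 1).

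**Figure D1:**
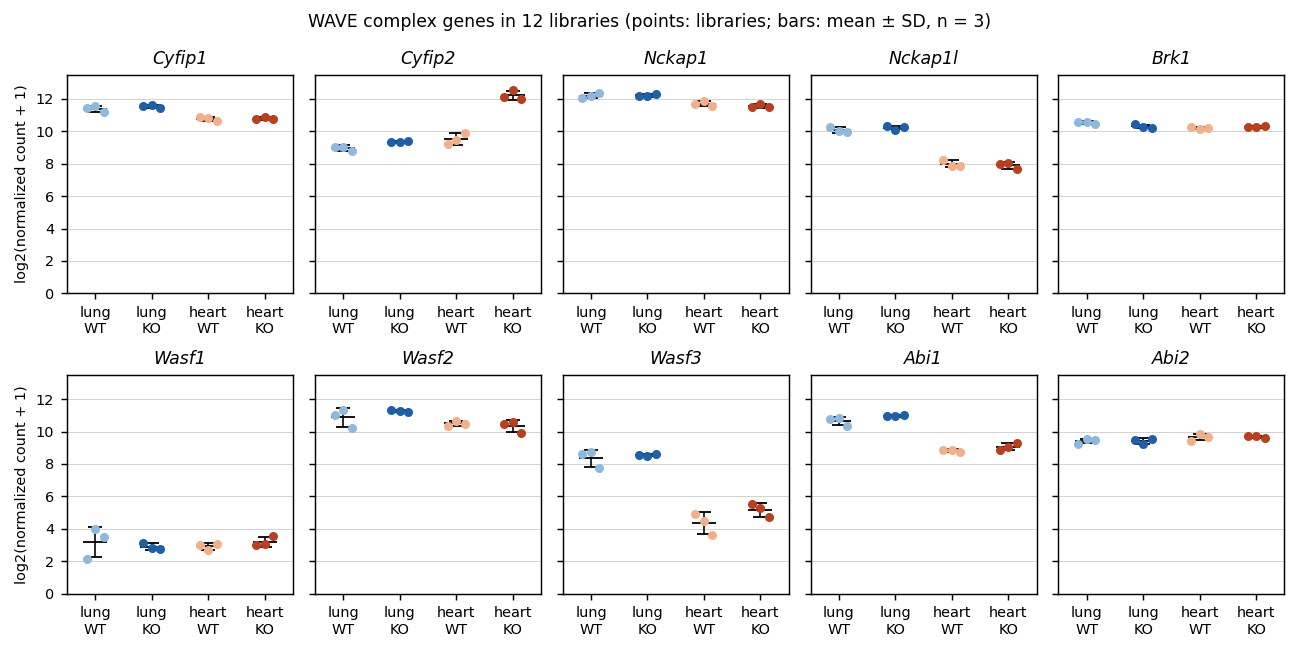
Level of each WAVE complex gene, as log2(normalized count + 1), in the 12 libraries, with 1 panel a gene, 1 column a group of 3 libraries, points for libraries and bars for mean ± SD. Cyfip2 in the 3 KO hearts lies between 12.01 and 12.54, above every other library, whereas Nckap1l, Wasf3 and Abi1 split by tissue.

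Cyfip1, the paralog in the same place of the complex, was not called between genotypes in either tissue. It was 10.86, 10.79 and 10.63 in the WT hearts and 10.75, 10.91 and 10.74 in the KO hearts, which overlap. The difference of 0.04 in heart had a 95% interval from -0.24 to 0.32, and that of 0.16 in lung one from -0.19 to 0.50 (limma; adjusted p = 0.95 and 0.87).

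Cyfip1 and Cyfip2 were set against each other within each library as summed transcripts per kilobase, a scale on which genes of different length can be compared. Cyfip2 made up 14.4% to 16.02% of the sum of both in the WT lungs and 16.4% to 19.1% in the KO lungs. In the WT hearts its share was 24.2%, 27.9% and 37.4%, and in the KO hearts 72.1%, 75.6% and 70.7%. Cyfip1 was thus the more abundant CYFIP transcript in both lungs and in WT heart, and Cyfip2 in each of the 3 KO hearts. The log2 ratio of Cyfip2 to Cyfip1 was lower in lung than in heart in all 6 mice, with a mean lung minus heart difference of -1.22 in the WT and -3.66 in the KO mice. The summed level of both genes per kilobase was 2.62-fold higher in KO than in WT hearts and 1.14-fold higher in KO than in WT lungs.

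**Figure D2:**
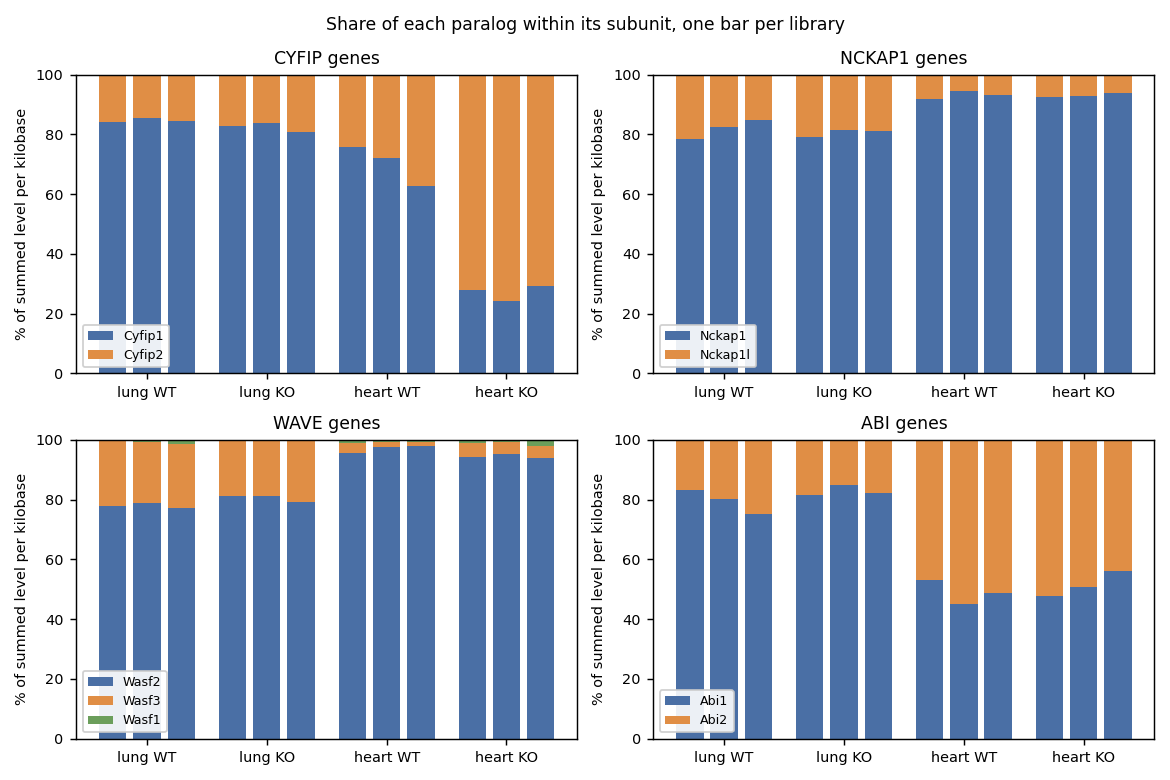
Share of each paralog in the summed level per kilobase of its kind of subunit (y axis, percent), with 1 bar a library in groups of 3. Cyfip2 takes 70.7% to 75.6% in the KO hearts and at most 37.4% elsewhere, while the shares of the NCKAP1, WAVE and ABI genes follow the tissue.

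By transcript, the higher level of Cyfip2 in the KO hearts was carried by ENSMUST00000093166, the form with the 141 base first exon. On a log2(scaled estimated count + 1) scale, with the scaling of the gene values, it was 9.06, 9.42 and 9.83 in the WT hearts and 12.03, 12.43 and 11.87 in the KO hearts. It accounted for 93.3% of the rise in summed scaled counts. Its share of the Cyfip2 counts was 94.3% ± 4.85 in WT heart and 93.4% ± 1.61 in KO heart (SD, n = 3), and 99.6% ± 0.747 in WT lung and 98.5% ± 2.04 in KO lung. Of the 23 member transcripts tested between KO and WT hearts, no other was called, where 0.0625% of 32015 transcripts were. The call of ENSMUST00000093166 itself belongs to the contrast that chose the complex, so it is not a test and is not to be set beside that share. Its difference of 2.68 lay between 2.49 and 2.87 when 1 heart library was left out. It was then called without WT replicate 3 but not without any of the other 5 (WT replicates 1 and 2, KO replicates 1, 2 and 3), nor when a normalized count of 10 was asked of every library.

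The transcripts with the other first exons and with the extra exon made up a small share of Cyfip2. ENSMUST00000165599 was at 5.11, 0 and 5.26 in the WT hearts and 7.15, 6.79 and 7.06 in the KO hearts. ENSMUST00000093165 was at 4.44, 0 and 0 in the WT hearts and 5.28, 6.41 and 6.84 in the KO hearts. Both were thus higher in every KO than in every WT heart, as was the main form. The values of 0 fall in WT heart replicates 2 and 3, the hearts of lowest depth. These held 20381284 and 18392292 estimated counts over all transcripts, and the other hearts 31784742 to 35862932. ENSMUST00000142017, which holds the extra exon shown above, was at 3.35, 3.16 and 4.02 in the WT hearts and 5.74, 7.39 and 6.58 in the KO hearts. Without scaling for depth, it had 9.91, 4.17 and 8.33 estimated counts in the WT hearts and 56.5, 174 and 102 in the KO hearts. It was listed at 0 in all 6 lung libraries, although the main form had 442 to 967 estimated counts there. It made up 1.37% ± 0.281 of the Cyfip2 counts in WT heart and 2.12% ± 0.843 in KO heart (SD, n = 3). Reads outside the extra exon and its junctions fit several transcripts, so these counts are estimates of a split and not reads over the exon.

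**Figure D3:**
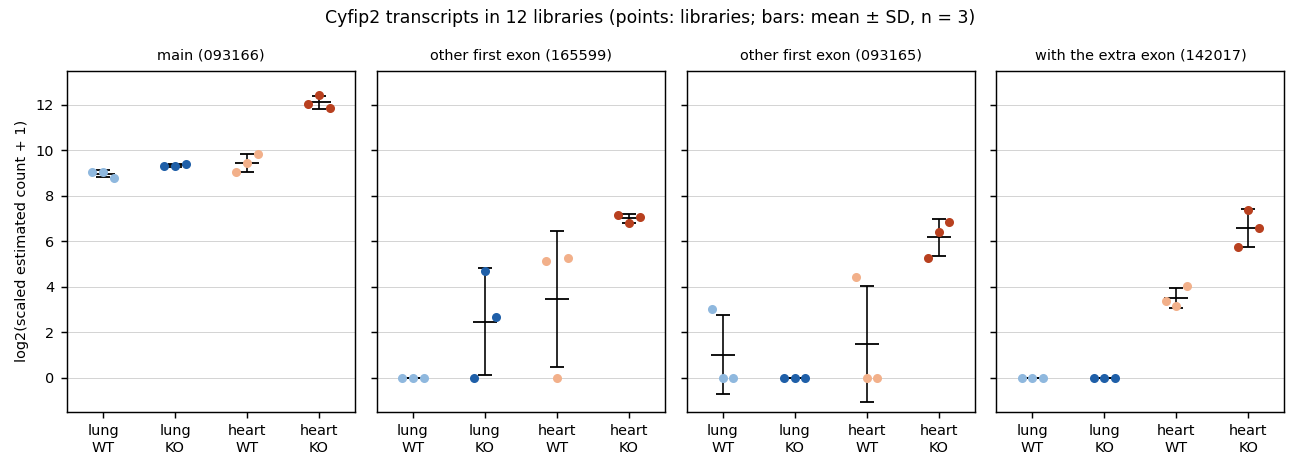
Level of 4 Cyfip2 transcripts, as log2(scaled estimated count + 1), in the 12 libraries (points), with bars for the mean ± SD of each group of 3. All 4 are highest in the KO hearts, and the form with the extra exon is listed at 0 in every lung library and lies between 3.16 and 4.02 in the WT hearts.

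Markers of neurons, which are known to express Cyfip2, lay higher in the KO than in the WT hearts. The summed level of 6 neuron markers (Rbfox3, Snap25, Tubb3, Syp, Elavl4 and Prph) was 7.48, 6.94 and 5.95 in the WT hearts and 9.57, 8.51 and 8.89 in the KO hearts. In 5 of the 6, every KO heart lay above every WT heart. Of the 4 that passed the count minimum, 4 did so, where 7.82% of the 15303 genes tested in heart did. Tubb3, a neuronal tubulin, averaged 4.46 in WT and 7.41 in KO heart, and Prph, an intermediate filament of peripheral neurons, 4.70 and 7.10. Rbfox3 was at or below 1.56 in every heart library. No neuron marker of the 4 tested was called in heart (limma; lowest adjusted p = 0.224). Among the hearts, the library order of the marker sum was not that of Cyfip2: of the KO hearts, replicate 2 had the highest Cyfip2 and the lowest marker sum, and of the WT hearts, replicate 3 had the highest Cyfip2 and the lowest marker sum. In lung the marker sum was 6.53 to 7.39 in WT and 6.98 to 7.04 in KO. The 3 smooth muscle markers also lay higher in every KO than in every WT heart, with a summed level of 12.99 to 13.38 in WT and 13.82 to 13.96 in KO. The sums of other cell types overlapped between genotypes in heart: 5 T cell markers averaged 5.12 in WT and 5.29 in KO, 4 B cell markers 5.64 and 5.70, and 3 Schwann cell markers 6.95 and 7.11. The part of these cell types in the Cyfip2 difference was not tested.

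The genes around Cyfip2 were compared between genotypes in the same way. Of the 46 annotated genes reported with a start within 500 kb of either end of Cyfip2, 36 were listed, 8 were tested in lung and 9 in heart. In heart, Adam19 and Gm12167 were called, where 0.085% of all tested genes were, and in lung Adam19, where 0.0665% were. Gm12167 is a noncoding gene on the plus strand whose start is 29.3 kb upstream of Cyfip2. It was 4.19, 4.42 and 4.38 in the WT hearts and 6.80, 6.98 and 7.46 in the KO hearts, a difference of 2.75 (SE 0.27, adjusted p = 0.00558), and at most 2.14 in lung. Med7, a Mediator subunit gene, differed by -0.08 (SE 0.19) and Clint1, which encodes a clathrin adaptor, by -0.22 (SE 0.13) in heart. The other genes tested but not called in heart were Havcr2 at 1.09 (SE 0.48), Gm12174 at -1.01 (SE 0.48), Thg1l at -0.62 (SE 0.19), Timd4 at -0.15 (SE 0.31) and Lsm11 at -0.11 (SE 0.18). Of the annotated genes called near Cyfip2 in heart, Gm12167 was thus higher and Adam19 lower in the KO mice. The fusion of Adam19 and tdTomato is listed as a separate gene and is not among these neighbours. It was at 11.60, 10.78 and 11.23 in the KO hearts and at 10.34 to 11.13 in the KO lungs. In the WT mice it was at 2.16 in heart replicate 1 and at 0 elsewhere. The Adam19 values thus leave out transcripts assigned to the fusion. With 1 KO allele, an effect of the inserted sequence on genes near it and an effect of the loss of Adam19 cannot be told apart.

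**Figure D4:**
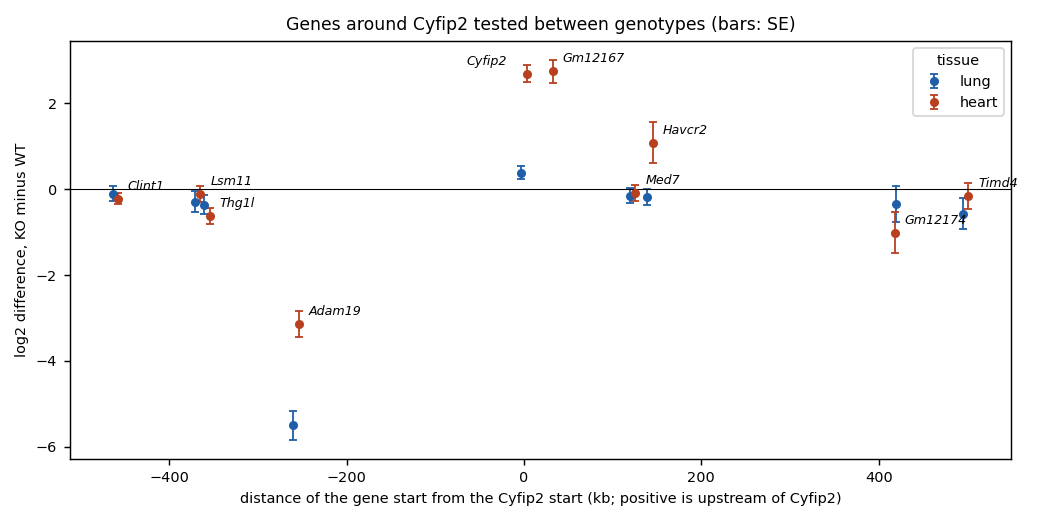
Difference between KO and WT (y axis, log2, bars for SE) of the tested genes reported around Cyfip2, by the distance of their start from that of Cyfip2 (x axis, kb, positive upstream), in lung and heart. In heart, Cyfip2 and Gm12167 lie at 2.70 and 2.75 and Adam19 at -3.14, and no other gene shown was called in either tissue.

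No member other than Cyfip2 was called between genotypes. Of the 9 members tested in lung, 0 were called, where 11 of 16551 genes were (0.0665%). In heart, 0 of the 8 other members tested were called, where 13 of 15303 genes were (0.085%), and Cyfip2 is given as a description because its values there chose the complex. None of the other 8 members passed an unadjusted p under 0.05 in either tissue (limma). Wasf1 was under the count minimum in these comparisons. Of 21 member transcripts tested in lung 0 were called, where 37 of 36857 transcripts were (0.1%), and limma-voom on genes also called 0 members in lung.

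The intervals say how large a change could have been missed. For Nckap1, the large partner of CYFIP, the KO minus WT difference was 0.01 in lung (95% interval -0.33 to 0.34) and -0.15 in heart (-0.44 to 0.14). For Brk1 it was -0.21 (-0.54 to 0.11) and 0.09 (-0.18 to 0.35). The widest interval was that of Wasf3 in heart, with a difference of 0.83 (-0.14 to 1.81). Wasf3 was 4.95, 4.48 and 3.62 in the WT hearts and 5.53, 5.31 and 4.70 in the KO hearts, which overlap. Abi1 was higher in every KO than in every WT lung, at 10.93 to 11.02 against 10.33 to 10.82, by 0.32 (SE 0.17, adjusted p = 0.839).

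**Figure D5:**
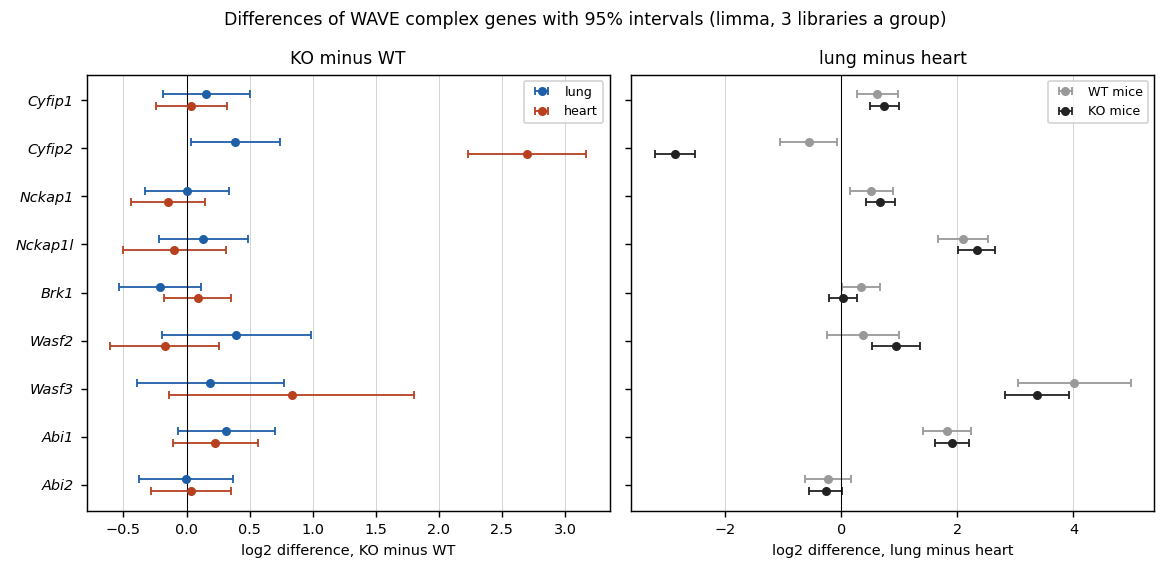
Log2 differences of the 9 tested members with 95% intervals, KO minus WT at left (lung and heart) and lung minus heart at right (WT and KO mice), from limma with 3 libraries a group. At left only Cyfip2 in heart stands away from the rest at 2.70, and at right Wasf3, Nckap1l and Abi1 lie at 1.82 or above in both genotypes.

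The members differed more between lung and heart. In WT mice, 4 of 9 tested members were higher in lung, where 29.7% of 16636 genes were, and 0 were lower, where 20.5% of genes were. In KO mice, 6 of the 8 tested members other than Cyfip2 were higher, where 30.9% of 16802 genes were, and 0 were lower, where 22.3% were. Cyfip2, with a mean lung minus heart difference of -2.87, is left out of these KO counts as one of the values that chose the complex. The median lung minus heart difference of the 9 members, Cyfip2 included, was 0.52 in WT and 0.74 in KO mice, beside 0.30 and 0.28 over all tested genes. The KO median is thus not free of the values that chose the complex. The comparisons share no library, and Abi1, Nckap1l, Wasf3 and Cyfip1 were called higher in lung in both. With no scaling between libraries, 72.4% of the genes called in WT mice were higher in lung, against 59.2% with the deposited scaling, and the same 4 members were called.

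Nckap1l, the blood cell form of NCKAP1, was 10.28, 10.04 and 9.95 in the WT lungs and 8.23, 7.88 and 7.85 in the WT hearts. The lungs lay above the hearts by 2.10 in WT (SE 0.19, adjusted p = 2.59e-05) and 2.33 in KO mice (SE 0.14, adjusted p = 1.82e-06). Nckap1, its widely expressed paralog, was higher by 0.67 in KO lung (SE 0.11, adjusted p = 0.000549). In WT mice the difference of Nckap1 was 0.52 (SE 0.16, adjusted p = 0.0218), under the fold minimum of 1.5. Nckap1l made up 15.1% to 21.6% of the NCKAP1 level per kilobase in the 6 lungs and 5.57% to 8.08% in the 6 hearts. The summed level of 5 leukocyte markers was 13.65 to 14.02 in the lungs and 10.15 to 10.71 in the hearts, and the part of leukocyte number in the Nckap1l difference was not tested.

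Among the WAVE genes, Wasf2 was the main form everywhere. It made up 77.3% to 81.2% of the WAVE level per kilobase in the lungs and 94.0% to 98.1% in the hearts. Wasf2 was 10.24 to 11.34 in the WT lungs and 10.34 to 10.66 in the WT hearts, which overlap, with a difference of 0.37 (SE 0.27, adjusted p = 0.259). Without lung WT replicate 3 that difference was 0.69 and was called (adjusted p = 0.00955). In KO mice it was higher in lung by 0.94 (SE 0.18, adjusted p = 0.00141). Wasf3, a WAVE gene known from brain and other tissues, was 8.59, 8.75 and 7.77 in the WT lungs and 4.95, 4.48 and 3.62 in the WT hearts. Its lung minus heart difference was the largest of the members, 4.02 in WT (SE 0.42, adjusted p = 6.72e-05) and 3.37 in KO mice (SE 0.24, adjusted p = 5.3e-06). Lung WT replicate 3 was the lowest of the 6 lungs in both Wasf2 and Wasf3, and it also had the lowest share of Rn7s1. Wasf1 was barely present, at 2.15 to 3.97 over all 12 libraries and 0.226% to 2.18% of the WAVE level.

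The ABI adaptors were unequal in lung, where Abi1 led, and about equal in heart. Abi1 was 10.80, 10.82 and 10.33 in the WT lungs and 8.88, 8.87 and 8.74 in the WT hearts. It was higher in lung by 1.82 in WT (SE 0.18, adjusted p = 4.84e-05) and 1.91 in KO mice (SE 0.13, adjusted p = 3.34e-06). Abi2 was 9.25 to 9.54 in the WT lungs and 9.45 to 9.85 in the WT hearts, a difference of -0.23 (SE 0.17, adjusted p = 0.267), which was 0.19 with no scaling between libraries. Abi2 therefore made up 15.1% to 24.8% of the ABI level per kilobase in the lungs and 43.9% to 54.8% in the hearts. Brk1, which has no paralog, was 10.42 to 10.58 in the WT lungs and 10.12 to 10.27 in the WT hearts, a difference of 0.33 (SE 0.14, adjusted p = 0.0686).

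For the CYFIP genes, Cyfip1 was 11.41, 11.54 and 11.20 in the WT lungs, above the WT hearts by 0.62 (SE 0.16, adjusted p = 0.00804). Without lung WT replicate 2 or without heart WT replicate 3 the difference of Cyfip1 fell to 0.54 and 0.56, under the fold minimum. In KO mice it was 0.74 (SE 0.11, adjusted p = 0.00032). Cyfip2 in WT mice lay the other way, lower in each lung than in each heart by a mean of 0.56. Its limma test in WT mice gave adjusted p = 0.049 with a fold under 1.5, and adjusted p = 0.0825 with the mouse as a block. The WT values of Cyfip2 were known when the complex was chosen, so this test is not free of that choice. With no scaling between libraries the WT difference of Cyfip2 was -0.14.

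The ratio of paralogs within a mouse does not rest on the scaling between libraries. Over the 6 mice, the log2 ratio of Nckap1l to Nckap1 was higher in lung by 1.64 ± 0.192 (SD, n = 6; 6 of 6 mice). That of Wasf3 to Wasf2 was higher by 3.13 ± 0.902 in 6 of 6 mice, and that of Abi2 to Abi1 was lower in 6 of 6, with a mean of -2.11 ± 0.297. Each had p = 0.03125 in an exact two-sided sign permutation test, the smallest that 6 mice allow, and adjusted p = 0.0391 over the 5 ratios computed. The adjusted p depends on the ratio of Cyfip2 to Cyfip1, which is 1 of the 5 and holds the KO heart values that chose the complex. It is thus not free of that choice, and the unadjusted p does not use that ratio. The ratio of Wasf1 to Wasf2 was higher in lung in 2 of 6 mice, with a mean of -0.65 ± 1.36 (exact permutation p = 0.344). Between genotypes, the mean ratio of Wasf3 to Wasf2 was higher by 1.12 in KO than in WT heart, and the KO minus WT differences of the other two were 0.06 (Nckap1l to Nckap1) and -0.15 (Abi2 to Abi1) in heart. In lung all 3 lay between -0.30 and 0.14.

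By transcript, 5 of 19 member transcripts tested were called between WT lung and WT heart, where 37.8% of 35553 transcripts were, and 14 of 26 between KO lung and KO heart, where 50.9% of 36424 were. Of these 14, 4 are Cyfip2 forms, whose values in the KO hearts chose the complex. Abi1 held most of those in WT mice. Its form ENSMUST00000153931 had levels of 6.41, 7.59 and 8.35 in WT lung and was at 0 in each of the 6 hearts and in KO lung replicate 2, and ENSMUST00000091394 had the highest group mean in heart, with 45.4% ± 10.8 of the Abi1 counts in WT and 51.7% ± 1.74 in KO heart (SD, n = 3). In WT heart replicate 2 it had 36.5% and ENSMUST00000123948 had 51.1%. Nckap1 had 1 leading form, ENSMUST00000028386, with 98.2% to 99.7% of its counts as group means. Cyfip1 was led by ENSMUST00000163845, at 66.9% to 75.5% as group means.

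Ranked by level per kilobase, Brk1 and Nckap1 were the highest members in WT lung and WT heart, with log2 levels per kilobase of 10.22 and 10.05 in lung and 9.89 and 9.54 in heart. In WT lung they overlapped. Abi1, Cyfip1, Wasf2 and Nckap1l followed in WT lung, each overlapping its neighbour in that order, then Abi2, Wasf3, Cyfip2 and Wasf1, of which Wasf3 and Cyfip2 overlapped. In WT heart the order after Nckap1 was Cyfip1, Wasf2, Abi2, Abi1, Cyfip2, Nckap1l, Wasf3 and Wasf1, and Cyfip1 overlapped with Wasf2, Abi2 with Abi1 and Abi1 with Cyfip2. In KO heart Cyfip2 stood second, at 9.57 ± 0.286 (SD, n = 3), between Brk1 at 9.98 and Nckap1 at 9.39, and overlapped with Nckap1. Among the summed levels of the 5 kinds of subunit in heart, the CYFIP sum was 8.63 in WT and 10.02 in KO, whereas the other 4 sums differed between genotypes by -0.15 to 0.14.

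The genes that act before and after the complex were counted from lists. The lists held 10 Arp2/3 subunits, 17 Rac GTPases and exchange factors, 14 other activators of Arp2/3 and their partners, 17 other partners of WAVE, 7 inhibitors and debranching factors and 4 CYFIP partners in translation. None of their tested members was called between genotypes in either tissue, where 0.0665% of all tested genes were in lung and 0.085% in heart. At such shares lists of this size would hold few or no called genes, so the absence of calls says little about them. The list medians lay between -0.14 and 0.12, beside 0.01 in lung and 0.03 in heart over all genes.

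Between tissues each of these lists held called genes. The counts are to be read beside the shares over all genes, which were 29.7% higher and 20.5% lower in WT lung and 30.9% and 22.3% in KO lung. Of the 10 Arp2/3 subunits, 4 were higher and 2 lower in lung in both genotypes, near those shares. Actr3b, a variant of the Arp3 subunit, was at 5.01 in WT lung and 10.33 in WT heart, whereas Arpc5, another subunit, was higher in WT lung by 2.16. Of the 17 Rac genes and exchange factors, 14 were higher in WT lung and 15 in KO lung and none lower, with a list median of 1.65 in WT mice beside 0.30 over all genes. Rac2, the Rac of blood cells, was higher in lung by 3.28 and Dock2, a Rac exchange factor of leukocytes, by 3.41 in WT mice. Of the 14 other activators and partners, 7 were higher and 2 lower in WT lung, with Was at 7.63 in WT lung and 5.55 in WT heart. Of the 7 inhibitors and debranching factors, 6 were higher and 1 lower in WT lung. Gmfg, a debranching factor of blood cells, was higher in lung by 3.68 and the coronin gene Coro1a by 3.32. Several of these genes, Coro1a among them, are also leukocyte genes, and the leukocyte marker sums are those given for Nckap1l. Of the 15 other WAVE partners tested, 7 were higher and 5 lower in WT lung: Baiap2, which encodes a membrane-bending partner of WAVE, was higher by 2.62, and Enah, an actin elongation factor, was at 10.11 in WT lung and 12.43 in WT heart. Of the 4 partners in translation, 1 was higher and 3 lower in lung in both genotypes. Fmr1 was higher in WT lung by 1.47, and Fxr1, its homolog of striated muscle, was at 10.19 in WT lung and 12.53 in WT heart.

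The genes whose pattern was most like that of Cyfip2 were ranked by Pearson correlation among genes with a group mean of at least 6, which were 13936 over the 12 libraries. Over the 12 libraries, which share 6 mice and fall into 4 groups, the highest were Syne3 (r = 0.95), Ifit1bl1 (0.93), Zxda (0.92), Clcn2 (0.91) and Mmp23 (0.90), and the lowest were Slc6a4 (-0.93), Ints10 (-0.92), Mtx3 (-0.89), Arl5c (-0.89) and Ctns (-0.89). Syne3, which encodes a nuclear envelope protein, averaged 8.49 in WT and 8.93 in KO heart. Over the 6 hearts, the highest were Syne3, Kpna2, Pwwp2a, Mt2 and 9130015G15Rik (r = 0.98 to 0.99) and the lowest Me1, Gm10184, Gm12663, Snhg3 and Gm7334 (r = -0.99 to -0.98). Over the 6 lungs, the highest were Sardh, Borcs8, Crtc2, Wdcp and Hsd17b12 (r = 0.99) and the lowest Ccn3, Coprs, Lilra5, Creld2 and Zbtb48 (r = -0.99). These are the ends of rankings of 13915 genes in heart and 13924 in lung, each over 6 libraries that fall into WT and KO. None of the correlations was tested. No gene but Syne3 was among the 5 highest both over the 12 libraries and over the hearts. Of the other 8 members ranked, the correlation with Cyfip2 over the 12 libraries ran from -0.74 for Nckap1 to 0.53 for Abi2.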

How the data were processed

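Lung and heart RNA of 6 mice was sequenced (12 libraries). The authors deposited a gene table and a transcript table. Per the labels and the study's methods, reads were trimmed with cutadapt and quantified with Salmon on mouse transcripts of build mm39, and the submitters' processing notes also name STAR and limma 3.42.2. The deposited gene values are log2(normalized count + 1). The deposited transcript values are log2(estimated count + 1) without scaling between libraries, and were turned back into estimated counts. How transcripts were summed to genes and which scaling was used are not given in the sources used here. For single-transcript genes whose transcript reached 9 or more, gene and transcript values of a library differed by 1 constant (-0.63 to 0.80, within 0.01 in 94.7% to 98.6% of these genes), which was taken as the scaling and applied to the transcripts. Total RNA without molecular identifiers was counted, so precision was limited by depth (17674788 to 35862932 estimated counts) and by 3 mice per group. Mice are separate animals.

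Groups were compared with limma 3.58.1 (R 4.3.3; trend of variance with abundance, Benjamini-Hochberg adjustment over all features tested) on genes or transcripts at a normalized count of at least 10 in at least 3 libraries of the comparison. Since the deposited values were on a log2 scale, no count model was used, and fold changes of low genes are understated. Calls of genes between groups needed an adjusted p under 0.05, a fold of at least 1.5 and a group mean of at least 6. Calls of transcripts had no minimum group mean, and calls of the interaction needed the adjusted p alone. Levels per kilobase divided each transcript by its length. Scripts were tested on simulated data. Lung and heart libraries of a mouse share its identifier in the labels, which pairs them, and their deviations from group means correlated at -0.07 to 0.14. Named genes were the 10 members, Adam19, genes within 500 kb of Cyfip2, the 5 highest and lowest correlations, and up to 3 called genes of each list with the largest difference. The members, lists and markers were chosen with earlier results of these data known. Coordinates, lengths and transcript structures came from a later GENCODE release of GRCm39 than the one the authors quantified. All 65 member transcripts matched by identifier, 27 of them with another version number, the main Cyfip2 transcript included, so its first exon and levels per kilobase rest on the later model. 1 gene within 500 kb of Cyfip2 is not reported here.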

Additional observations from a re-analysis of the deposited data

Results flagged for a closer look

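The genotype effect on Cyfip2 differed between the tissues: the KO minus WT difference was 0.39 (SE 0.16) in lung and 2.70 (SE 0.21) in heart, which is -2.31 (SE 0.26) as lung minus heart on the log2 scale. The difference was flagged by the interaction term of the fit over 12 libraries. The same values led to the choice of these genes, so they are given as a description. The value lay between -2.63 and -2.13 over the alternatives run and was lower in lung in each, but it was not called after quantile normalization or in 6 of the 12 fits without 1 library.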

How the results depend on the processing

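No result that was called changed its sign under an alternative, and 32 of 967 recomputed single values, none of them called, did. None of the 171 recomputed values of Cyfip2 changed sign. Of the member transcripts, 0 were called between KO and WT hearts when a normalized count of 10 was asked of every library and 0 to 1 with 1 library left out, and 0 to 1 in lung (1 without lung WT replicate 3). Between tissues, 3 were called in WT mice with no trend of variance and 4 to 7 with 1 library left out, and 8 in KO mice with a normalized count of 10 in every library and 13 to 17 with 1 library left out. The interaction called 0 members after quantile normalization and 0 to 1 with 1 library left out (0 without lung WT replicate 1 or 2, any lung KO replicate or heart KO replicate 1). With 1 mouse left out, the lung minus heart ratios were 1.60 to 1.71 (Nckap1l to Nckap1), 2.83 to 3.31 (Wasf3 to Wasf2) and -2.20 to -2.05 (Abi2 to Abi1), with adjusted p = 0.078125, since 5 mice cannot pass the threshold. The causes were not tested.

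Quantile normalization called 6 members between WT lung and heart, Cyfip2 (-0.60) and Nckap1 (0.84) in addition, and summed transcripts lost Nckap1 in KO mice (0.56). Over all features, 11 genes were called in lung (1 to 61 over the alternatives), 13 in heart (7 to 163), 37 lung transcripts (0 to 224), 20 heart transcripts (0 to 173), 1 interaction gene (0 to 6) and 18549 transcripts between KO tissues (11433 with a normalized count of 10 in every library). With no scaling between libraries the median of all genes moved from 0.01 to 0.27 in lung and from 0.03 to 0.62 in heart, 91.4% instead of 53.8% of heart calls were higher in KO, and Cyfip2 differed by 0.65 in lung and 3.28 in heart. The replicate block (mouse) left 4 members called in WT and 7, Cyfip2 included, in KO mice, and 4 and 13 transcripts. Without the pairing within mice, the 3 paralog ratios that passed had an exact permutation p of 0.00271, adjusted over 5. Every adjustment of these ratios counts Cyfip2 to Cyfip1, which holds values that chose the complex. Depth limits the Cyfip2 form with the extra exon, at under 10 estimated counts in each WT heart, and Wasf1, which was under the count minimum.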
